A study of Mus musculus with 12 samples.

Results

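Skin of libraries labelled SCCA2KO was compared with skin of wild-type (WT) libraries across both patch treatments of a mouse study, and genes that differed by genotype in the same direction under both patches were sought. The comparison took all 12 of the 12 RNA-seq libraries: 6 labelled SCCA2KO against 6 labelled BALB/C WT, with the patch as a covariate. The 4 groups of 3 libraries each were SCCA2KO with the ASP patch, WT with the ASP patch, SCCA2KO with the SAL patch and WT with the SAL patch. All animals carried the BALB/C strain label. The ASP patch held 200 µg of Aspergillus fumigatus extract on gauze. It was taped to the back on day 1, after shaving on day 0, and was removed on day 4. Patched skin was taken on day 5. The labels give "SAL" with no expansion, and give neither age nor sex. Nothing in them says whether the 3 libraries of a group came from separate animals, so the p-values below measure the spread between these libraries, which may be technical.

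The genotype labels contradict each other. The titles read SCCA2KO, the genotype field calls the same mice Serpinb3a-transgenic, and the series text calls them null for Serpinb3a. Serpinb3a had more counts in the libraries labelled SCCA2KO than in WT (values below), which does not settle which label is right. Which exons an allele removes is not given in the sources used here, and a gene-level count cannot show whether a transcript is intact. Every direction below therefore compares libraries by their labels, and "higher" means higher in the libraries labelled SCCA2KO.

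Total counts were 6705396 to 12933436 per library, and major urinary protein (Mup) transcripts took 8.43% to 39.0% of them. The skin keratins Krt5, Krt14, Krt1 and Krt10 were abundant in all 12 libraries, with at least 901 counts each. Xist was counted in every library, while the Y-linked genes Kdm5d and Eif2s3y had 0 counts in all of them, Ddx3y at most 2 and Uty at most 8. Levels are in CPM, counts scaled to library size, with edgeR's trimmed mean of M values (TMM) as the scaling. Differences are log2 fold changes, SCCA2KO over WT, with the standard error (SE) of the fit. A gene was called when its p, adjusted by the Benjamini-Hochberg method across all 15341 tested genes, was below 0.05.

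Clade B serpins are intracellular protease inhibitors that trap their target protease by a change of shape. The mouse Serpinb3 paralogs correspond to human SERPINB3 and SERPINB4, the squamous cell carcinoma antigens, which are made in stratified epithelium and inhibit papain-like cysteine proteases and chymotrypsin-like serine proteases. In mouse they lie side by side on chromosome 1 with other clade B genes. Skin patched with an extract of Aspergillus, a mould whose proteases act on epithelium, is a model of allergen-driven dermatitis.

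The promoters of 4 cluster members are shown because the called gene, Serpinb11, and the higher Serpinb3a and Serpinb3d lie in 1 cluster with Serpinb3b, which had the opposite sign. The sequences are from RefSeq (build GRCm38.p6), span 300 bases around each gene's annotated start, most of them before it, and are written in the direction of transcription. Serpinb3a lies at chr1:107052254-107052553 on the minus strand, Serpinb3b at chr1:107161065-107161364 on the minus strand, Serpinb3d at chr1:107083431-107083730 on the minus strand and Serpinb11 at chr1:107362064-107362363 on the plus strand. Capitals mark the TATA-box letters TATAAA, or TTTATA where they run on the other strand.
Serpinb3a: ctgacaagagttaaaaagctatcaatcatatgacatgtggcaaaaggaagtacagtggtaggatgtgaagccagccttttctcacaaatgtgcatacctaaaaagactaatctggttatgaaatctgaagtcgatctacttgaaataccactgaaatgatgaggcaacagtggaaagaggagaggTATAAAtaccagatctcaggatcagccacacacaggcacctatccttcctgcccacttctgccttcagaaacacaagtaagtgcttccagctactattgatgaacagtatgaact
Serpinb3b: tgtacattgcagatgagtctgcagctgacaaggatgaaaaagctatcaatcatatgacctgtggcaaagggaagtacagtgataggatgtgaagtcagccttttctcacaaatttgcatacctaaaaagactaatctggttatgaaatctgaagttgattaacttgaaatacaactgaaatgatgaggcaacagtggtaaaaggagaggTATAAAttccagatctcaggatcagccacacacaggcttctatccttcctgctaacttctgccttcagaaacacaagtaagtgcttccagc
Serpinb3d: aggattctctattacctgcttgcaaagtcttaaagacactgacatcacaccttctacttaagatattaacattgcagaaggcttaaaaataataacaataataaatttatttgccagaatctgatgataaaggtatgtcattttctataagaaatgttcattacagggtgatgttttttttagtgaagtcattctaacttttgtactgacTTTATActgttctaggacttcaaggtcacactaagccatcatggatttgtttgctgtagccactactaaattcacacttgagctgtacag
Serpinb11: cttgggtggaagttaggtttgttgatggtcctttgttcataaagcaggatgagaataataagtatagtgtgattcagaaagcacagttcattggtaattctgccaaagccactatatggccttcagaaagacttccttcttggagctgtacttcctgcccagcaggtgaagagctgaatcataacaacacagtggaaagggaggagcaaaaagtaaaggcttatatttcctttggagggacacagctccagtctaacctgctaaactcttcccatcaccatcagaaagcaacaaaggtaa
The Serpinb3a and Serpinb3b windows matched at 257 of 276 aligned bases (93.1%), although Serpinb3a was higher and Serpinb3b lower in the libraries labelled SCCA2KO. The Serpinb3c window matched Serpinb3b at 279 of 290 aligned bases (96.2%). Serpinb3d and Serpinb11, both higher, gave no local alignment longer than 29 columns with any of the other windows. The annotated start of Serpinb3d falls on the letters atg of a start codon, so its window may not hold the promoter. The part of that annotation in its alignments and TATA letters was not tested. TATAAA occurred on the forward strand of Serpinb3a, Serpinb3b and Serpinb3c, only on the reverse strand of Serpinb3d, and on neither strand of Serpinb11. On either strand it was found in 14.2% of the 27025 promoters in the table and in 8.32% of the 11980 that belong to tested genes.

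One gene passed the test over both patches. Serpinb11, a clade B serpin that in mouse inhibits trypsin-like proteases, rose in the libraries labelled SCCA2KO. Under the ASP patch it had 8.56, 9.32 and 10.7 CPM in SCCA2KO and 2.71, 1.31 and 0.528 CPM in WT. Under the SAL patch it had 10.1, 5.14 and 9.3 CPM in SCCA2KO and 0.634, 1.13 and 0.380 CPM in WT. All 6 SCCA2KO libraries lay above all 6 WT libraries, and the lowest SCCA2KO value came from the SAL patch. The means were 8.84 ± 1.95 CPM in SCCA2KO and 1.11 ± 0.859 CPM in WT (SD, n = 6 each). The log2 fold change was 3.04 ± 0.43 (SE), with an adjusted p of 0.0239 by edgeR's quasi-likelihood test. It was 2.61 ± 0.58 under ASP and 3.52 ± 0.62 under SAL, and the difference between the patches did not pass edgeR's test (adjusted p = 0.998). None of the 2136 50-base words of its transcripts occurred in another gene's transcripts. The raw counts were 43 to 123 per SCCA2KO library and 4 to 31 per WT library. Leaving out any 1 of 8 libraries (all 3 SCCA2KO ASP libraries, SCCA2KO SAL replicate 1 or 3, or any WT SAL library) left an adjusted p of 0.0630 to 0.133, with the log2 fold change at 2.86 or more.

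Serpinb11 was 1 of 15341 genes tested to be called higher (0.00652% of genes), and 0 were called lower (0%). At an unadjusted p under 0.05, 244 genes were higher (1.59%) and 292 lower (1.90%), 536 in all (3.49%), against 767 that 5% of the genes tested would make. DESeq2 called 5 genes higher and 2 lower, and limma-voom 2 higher and 0 lower. Further genes are therefore given below as values that did not pass edgeR's test.

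The 4 Serpinb3 paralogs differed in direction. Serpinb3a and Serpinb3d were higher, and Serpinb3b and Serpinb3c lower, under each patch, and none of these passed edgeR's test. Serpinb3a had 2.31, 1.74 and 1.98 CPM in SCCA2KO and 0.699, 1.40 and 0.264 CPM in WT under ASP. Under SAL it had 6.39, 8.61 and 7.21 CPM in SCCA2KO and 0.725, 0.720 and 0.304 CPM in WT. The genotypes did not overlap under either patch, and the SCCA2KO libraries of the SAL patch were the highest of the 12. The raw counts were low, at 18 to 76 per SCCA2KO library and 2 to 15 per WT library. The log2 fold change over both patches was 2.49 ± 0.55 (edgeR unadjusted p = 0.000283, adjusted p = 0.724). It was 1.31 ± 0.63 under ASP and 3.66 ± 0.67 under SAL (edgeR adjusted p of the difference = 0.998). DESeq2 gave an adjusted p of 0.00643 over both patches.

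Serpinb3d, the next gene along, was counted at low levels. It had 2.12, 0.834 and 0.550 CPM in SCCA2KO and 0.175, 0.0934 and 0.264 CPM in WT under ASP. With the SAL patch the values were 2.08, 2.75 and 2.18 CPM in SCCA2KO and 0.272, 0.103 and 0.228 CPM in WT. Every SCCA2KO library was above every WT library, on 5 to 23 counts per SCCA2KO library and 1 to 3 per WT library. Over both patches the log2 fold change was 3.09 ± 0.62 (edgeR adjusted p = 0.475; DESeq2 adjusted p = 0.0126).

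Serpinb3b ran the other way. It had 8.08, 7.05 and 8.14 CPM in SCCA2KO and 16.7, 22.2 and 5.81 CPM in WT under ASP. Under SAL it had 6.87, 7.06 and 6.64 CPM in SCCA2KO and 34.7, 27.9 and 9.64 CPM in WT. The SCCA2KO libraries were close together and the WT libraries far apart (7.31 ± 0.641 CPM in SCCA2KO and 19.5 ± 10.96 CPM in WT, SD, n = 6 each), and replicate 3 of WT ASP lay below all SCCA2KO libraries. The log2 fold change was -1.38 ± 0.35 (edgeR unadjusted p = 0.00117, adjusted p = 1). Serpinb3c averaged 1.43 ± 0.542 CPM in SCCA2KO and 2.48 ± 1.13 CPM in WT (SD, n = 6 each), a log2 fold change of -0.82 ± 0.47 (edgeR unadjusted p = 0.103). The paralogs are near copies, and reads that fit several genes could have been assigned to any of them. Of the 50-base words, 15.04% of Serpinb3a, 14.7% of Serpinb3b, 12.2% of Serpinb3c and 13.4% of Serpinb3d occurred in another gene's transcripts. The gene sharing most was Gm8080 for Serpinb3a and Gm8089 for Serpinb3d, while Serpinb3b and Serpinb3c shared most with each other.

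**Figure D1:**
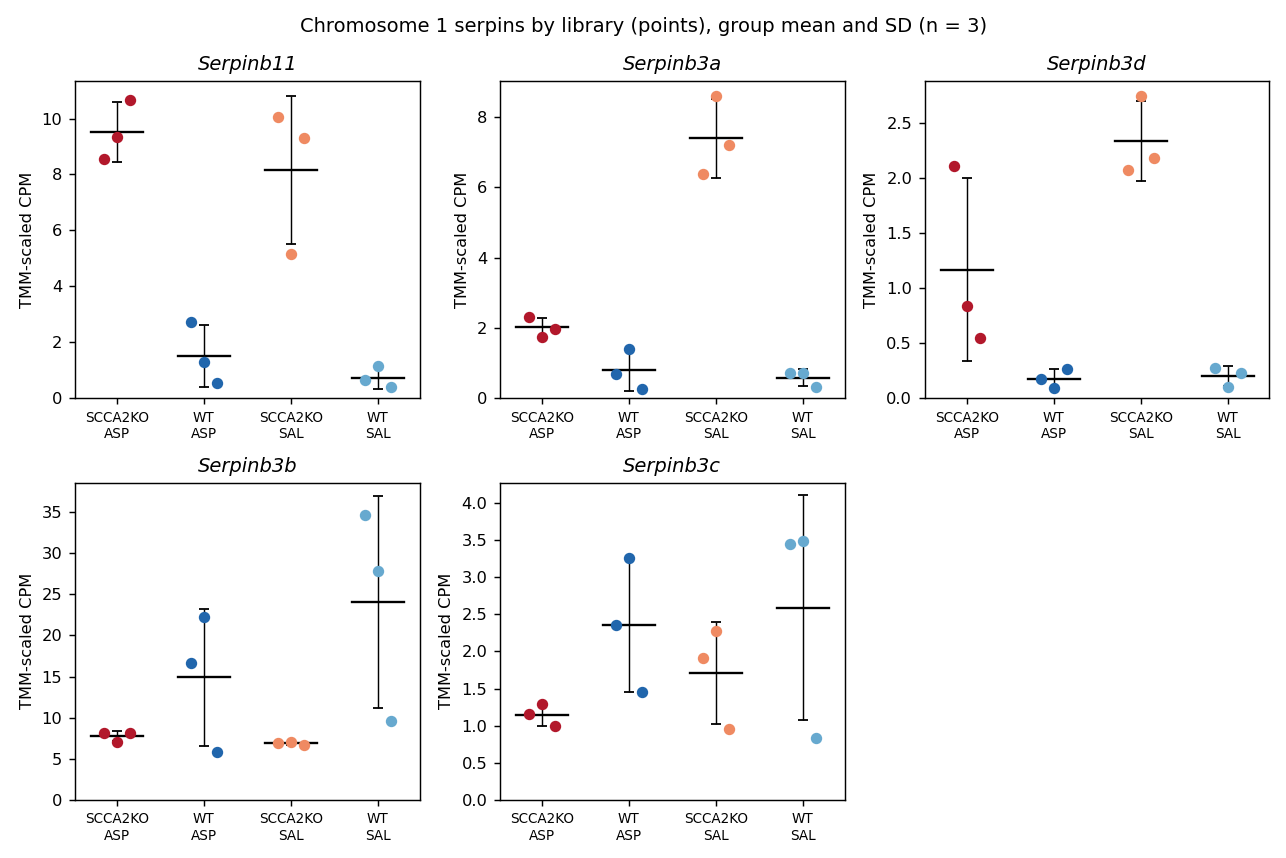
Levels of 5 serpins of the chromosome 1 cluster in each library, in TMM-scaled CPM, for SCCA2KO and WT under the ASP and then the SAL patch; points are libraries, lines the mean and SD of 3. Serpinb11, Serpinb3a and Serpinb3d are higher in every library labelled SCCA2KO than in any WT library, while the highest Serpinb3b values, up to 34.7 CPM, are in WT.

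Genes near Serpinb3a held more small p-values than genes at large. Within 1 Mb of the Serpinb3a start, 17 genes were tested, and 4 of them (23.5%) had an unadjusted p under 0.05, against 3.49% of all genes tested. The 4 were Serpinb3a, Serpinb3d, Serpinb3b and Serpinb11. Serpinb3a is itself the centre of the window, and it shares sequence with its paralogs, so the 4 are not separate observations. The share was 4 of 25 (16.0%) within 5 Mb and 9 of 124 (7.26%) within 20 Mb, and over all of chromosome 1 it was 39 of 906 (4.31%). Other clade B genes of the cluster had smaller log2 fold changes than the 4. Serpinb5, an epithelial serpin also called maspin, had 0.23, Serpinb7 0.12, Serpinb2 (plasminogen activator inhibitor 2) 0.23, Serpinb10 -0.38 and Serpinb8 0.29, none with an unadjusted p under 0.05 in edgeR. Serpinb12 and Serpinb13, between Serpinb5 and Serpinb3a, had 0.73 ± 0.58 and 0.68 ± 1.19 over both patches and opposite signs under ASP and SAL. Their log2 fold changes were 1.78 under ASP and -0.43 under SAL for Serpinb12, and 3.27 under ASP and -1.55 under SAL for Serpinb13 (edgeR adjusted p of the difference = 0.998 for each). Of 16 other clade B serpins listed and tested, Serpinb11 was called and none of the other 15 had an unadjusted p under 0.05.

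**Figure D2:**
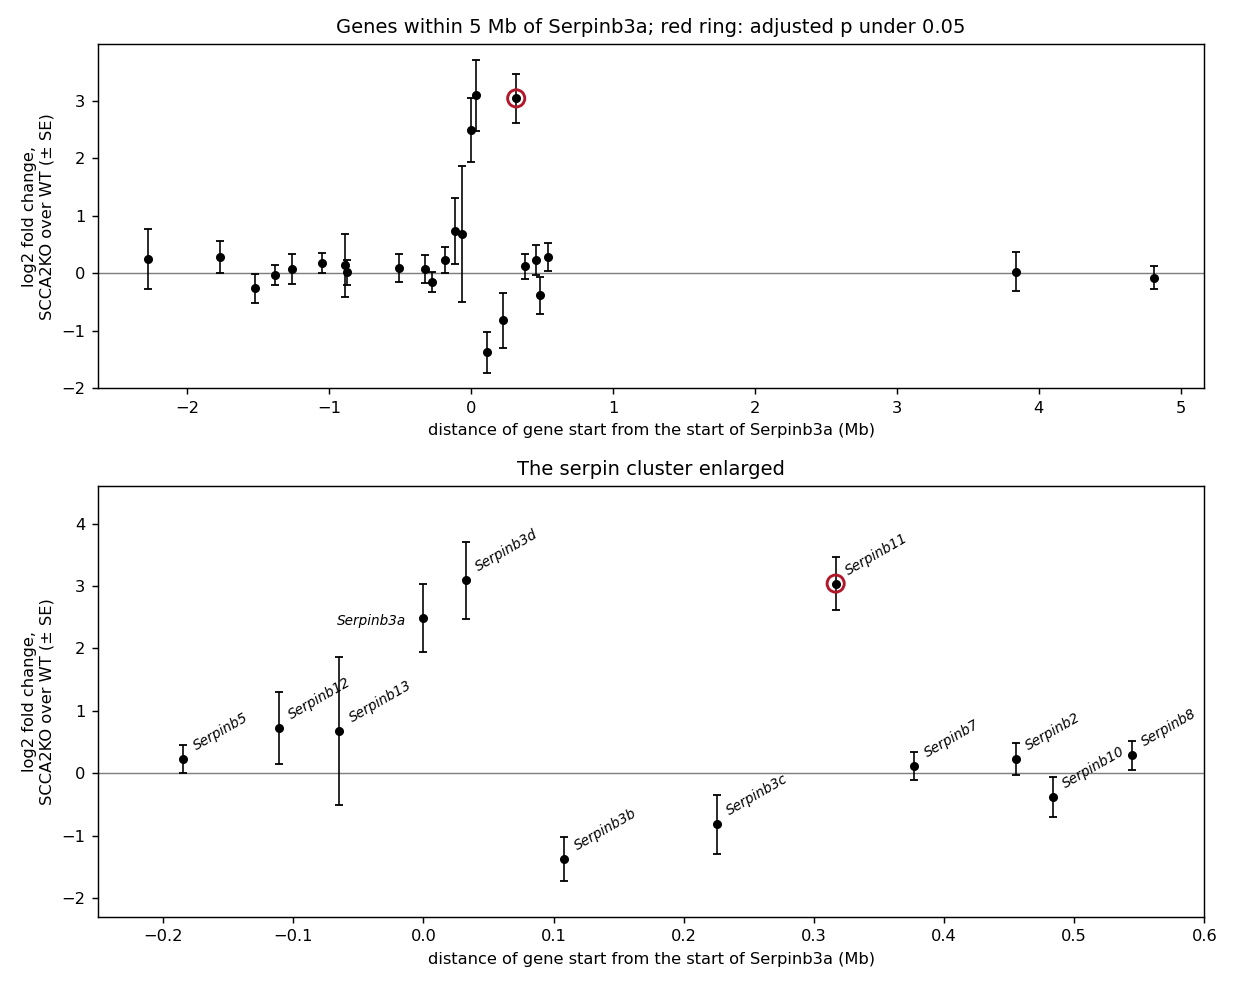
Log2 fold change over both patches, SCCA2KO over WT, with its SE, for genes within 5 Mb of Serpinb3a (top) and within the serpin cluster (bottom), by distance of the gene start from that of Serpinb3a in Mb. Serpinb3a, Serpinb3d and Serpinb11 stand at 2.49 to 3.09, Serpinb3b and Serpinb3c below 0, and Serpinb12 and Serpinb13 at 0.73 and 0.68 with wide errors; the red ring marks the called gene.

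Across the transcriptome the genotype differences of the 2 patches, which share no library, shared little direction. Of the genes tested, 7437 (48.5%) had the same sign under both patches, and across genes the log2 fold changes had a Pearson r of -0.06 and a Spearman rho of -0.03. These describe genes, which are not independent replicates. Under ASP alone 0 genes were called by edgeR (0%), with 471 at an unadjusted p under 0.05 (3.07%). Under SAL alone 0 genes were called (0%), with 670 at an unadjusted p under 0.05 (4.37%). For the difference between the patches, 0 genes were called (0%) and 585 had an unadjusted p under 0.05 (3.81%). DESeq2 called 5 genes under ASP, 6 under SAL and 1 for the difference between them. The gene called for the difference was Gm15093, which was also called under each patch. It had 16.6 CPM in SCCA2KO SAL replicate 1 and 3.73 and 1.58 CPM in WT ASP replicates 2 and 3. Every other library had 0 CPM of it, so this call rests on few libraries. Of the 471, 242 (51.4%) kept their sign under SAL, and of the 670, 339 (50.6%) kept theirs under ASP.

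In all, 20 genes (0.130% of those tested) had an unadjusted p under 0.05 under each patch with the same sign, 10 of them higher (0.0652%) and 10 lower (0.0652%). A further 14 (0.0913%) passed both with opposite signs. The count of 20 became 33 without WT ASP replicate 1 and 45 without WT ASP replicate 2. The higher genes were Serpinb11, Cyp2g1, Serpinb3d, Spon1, Treml2, Idi2, Mpo, 2700046G09Rik, Timm29 and Pank1. The lower genes were Gpnmb, Mmp12, Mid1, Mpg, Gm9958, Ugt8a, Rasgrf2, Vegfc, Mypop and Ptgr2. Of the 20, 7 did not overlap between the 6 SCCA2KO and the 6 WT libraries: Serpinb11, Cyp2g1, Serpinb3d, Spon1 and 2700046G09Rik above, Mpg and Ugt8a below. Over all genes tested, 23 (0.150%) were higher and 8 (0.0521%) lower without overlap. Of the genes described next, Treml2, Idi2, Timm29, Pank1, Ugt8a, Vegfc, Ptgr2 and Rasgrf2 were singled out after their values were seen.

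**Figure D3:**
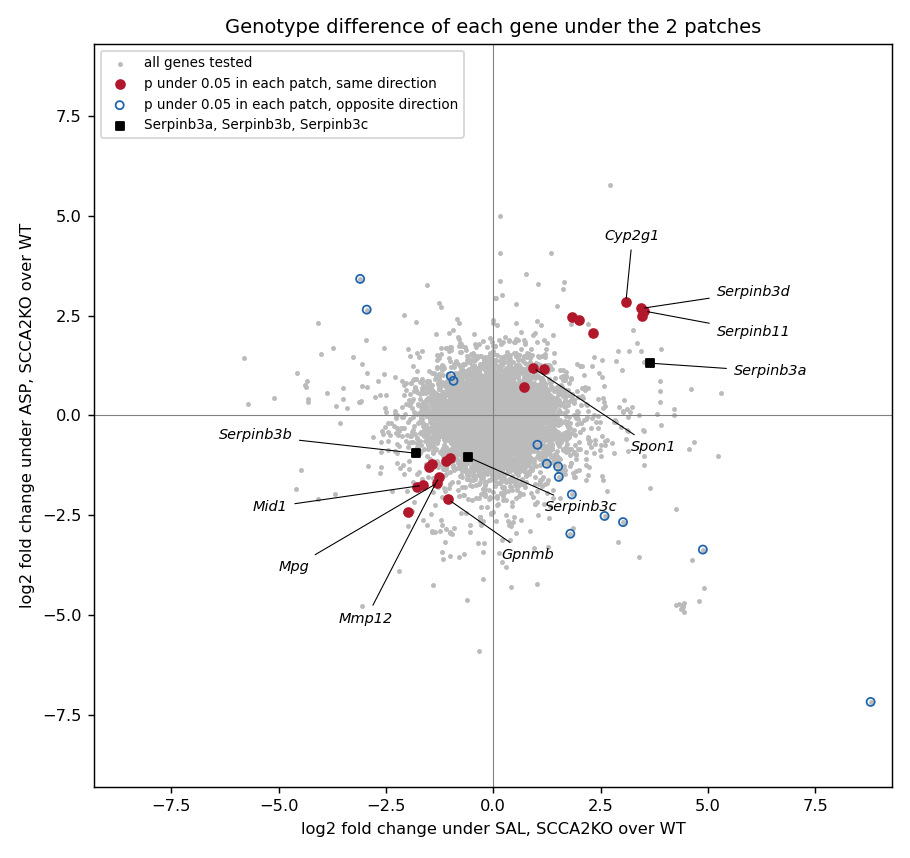
Log2 fold change, SCCA2KO over WT, of each gene under SAL (x axis) and under ASP (y axis). Red points are the 20 genes with an unadjusted p under 0.05 and the same sign under both patches, blue rings the 14 with opposite signs and black squares Serpinb3a, Serpinb3b and Serpinb3c; the cloud of all genes shows no slope (Pearson r -0.06).

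Outside the serpin cluster, Cyp2g1, a cytochrome P450 known from the olfactory mucosa, came nearest to the threshold. It had 76.0, 27.2 and 19.8 CPM in SCCA2KO and 8.21, 0.560 and 8.45 CPM in WT under ASP. With the SAL patch the values were 32.7, 74.5 and 51.8 CPM in SCCA2KO and 8.70, 4.63 and 5.32 CPM in WT. Every SCCA2KO library lay above the highest WT library. Over both patches the log2 fold change was 2.97 ± 0.48 (edgeR adjusted p = 0.0684), close to equal under ASP (2.84 ± 0.69) and SAL (3.09 ± 0.69). It passed with DESeq2 (adjusted p = 4.14e-07), with limma-voom (adjusted p = 0.0173) and without WT ASP replicate 2, the library at 0.560 CPM (edgeR adjusted p = 0.0129). Without any 1 of the other 11 libraries edgeR's adjusted p was 0.0630 to 0.467, and with no filter on low counts it was 0.531.

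Spon1, which encodes the secreted matrix protein F-spondin, had 31.7, 43.2 and 21.7 CPM in SCCA2KO and 16.9, 14.4 and 10.96 CPM in WT under ASP. Under SAL it had 33.1, 25.5 and 34.2 CPM in SCCA2KO and 13.6, 17.8 and 17.4 CPM in WT. The genotypes did not overlap, and the SD within each was small beside the difference (31.6 ± 7.47 CPM in SCCA2KO and 15.2 ± 2.67 CPM in WT, n = 6 each). The log2 fold change was 1.06 ± 0.22 (edgeR adjusted p = 0.575; DESeq2 adjusted p = 0.0126).

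Among the other higher genes, Treml2, a receptor of myeloid and lymphoid cells, had a log2 fold change of 2.95 ± 0.80. Its level was low, at 1.76 ± 1.26 CPM in SCCA2KO and 0.238 ± 0.282 CPM in WT (SD, n = 6 each). Under ASP the genotypes overlapped, with SCCA2KO down to 0.455 CPM and WT up to 0.792 CPM. Mpo, the neutrophil granule enzyme myeloperoxidase, had 2.17 ± 0.61, on means of 2.99 ± 2.19 CPM in SCCA2KO and 0.692 ± 0.787 CPM in WT (SD, n = 6 each). Idi2, an isopentenyl diphosphate isomerase of the isoprenoid pathway, had 2.13 ± 0.59. It was also low, at 1.65 ± 0.786 CPM in SCCA2KO and 0.376 ± 0.206 CPM in WT (SD, n = 6 each). Under SAL its genotypes overlapped, with SCCA2KO down to 0.479 CPM and WT up to 0.759 CPM. Timm29, a subunit of the mitochondrial inner membrane import machinery, had 1.16 ± 0.34. Pank1, which starts coenzyme A synthesis, had 0.71 ± 0.33 under each patch. None of the 5 passed edgeR's adjusted test.

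Of the lower genes, 2 are known from macrophages. Gpnmb, a membrane glycoprotein of melanocytes and lipid-laden macrophages, had 12.98, 13.3 and 11.3 CPM in SCCA2KO and 85.4, 35.0 and 40.9 CPM in WT under ASP. With the SAL patch the values were 10.1, 22.97 and 10.4 CPM in SCCA2KO and 22.1, 44.3 and 24.1 CPM in WT. Only SCCA2KO SAL replicate 2 reached into the WT range. Over both patches the log2 fold change was -1.58 ± 0.32 (edgeR adjusted p = 0.475; DESeq2 adjusted p = 0.00643), with -2.10 ± 0.43 under ASP and -1.05 ± 0.42 under SAL. Mmp12, macrophage elastase, had 7.21, 3.94 and 6.603 CPM in SCCA2KO and 11.8, 12.8 and 26.8 CPM in WT under ASP. Under SAL it had 3.04, 2.75 and 5.31 CPM in SCCA2KO and 6.25, 10.6 and 9.95 CPM in WT. Within each patch the genotypes did not overlap, while 1 WT SAL library fell below the highest SCCA2KO ASP libraries. The log2 fold change was -1.40 ± 0.31 (edgeR adjusted p = 0.742; DESeq2 adjusted p = 0.0292).

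Cell markers ran beside these values. Of 24 tested monocyte and macrophage markers, 4 were higher at an unadjusted p under 0.05, 0 were lower and 20 had a positive log2 fold change. Their summed level, without Gpnmb and Mmp12, ran from 898 through a median of 1448 to 1966 CPM in SCCA2KO and from 687 through 1022 to 1503 CPM in WT. The other 9 tested melanocyte markers summed to 122 to 274 CPM in SCCA2KO and 158 to 245 CPM in WT. The part of these cells in the Gpnmb and Mmp12 values was not tested. In bulk skin, fewer cells of a type and less RNA per cell cannot be told apart.

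Mid1, an X-linked ubiquitin ligase that binds microtubules, had 37.6, 13.6 and 14.1 CPM in SCCA2KO and 30.1, 33.6 and 156 CPM in WT under ASP. For SAL the values were 52.9, 18.3 and 19.9 CPM in SCCA2KO and 97.0, 126 and 58.8 CPM in WT. The genotypes overlapped under ASP, where WT replicate 3 stood apart, and did not overlap under SAL. Its log2 fold change was -1.69 ± 0.42, or -1.17 without WT ASP replicate 3, and 28.7% of its 50-base words occur in other genes, most in the copy Mid1-ps1. Mpg, the glycosylase that removes alkylated purines from DNA, had 2.12, 3.03 and 1.87 CPM in SCCA2KO and 4.72, 14.0 and 4.09 CPM in WT under ASP. With the SAL patch the values were 1.28, 1.56 and 2.28 CPM in SCCA2KO and 3.90, 5.35 and 3.57 CPM in WT. All SCCA2KO libraries were below all WT libraries, with a log2 fold change of -1.50 ± 0.39. Mpg overlaps Nprl3, with which it shares 32.8% of its 50-base words, and Nprl3 itself had a log2 fold change of -0.15 ± 0.31. Mid1 and Mpg each had an edgeR adjusted p of 1.

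The remaining lower genes were counted at modest levels. Ugt8a, which makes the galactolipids of myelin, averaged 1.71 ± 0.613 CPM in SCCA2KO and 4.26 ± 1.498 CPM in WT (SD, n = 6 each), with no overlap. Vegfc, a growth factor of lymphatic vessels, averaged 1.97 ± 0.946 CPM in SCCA2KO and 4.27 ± 1.94 CPM in WT (SD, n = 6 each), and its log2 fold changes were -1.15 under ASP and -1.10 under SAL. Ptgr2, a prostaglandin reductase, had -1.04 ± 0.32 and Rasgrf2, a Ras activator, -1.40 ± 0.42. None of the 4 passed edgeR's adjusted test.

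**Figure D4:**
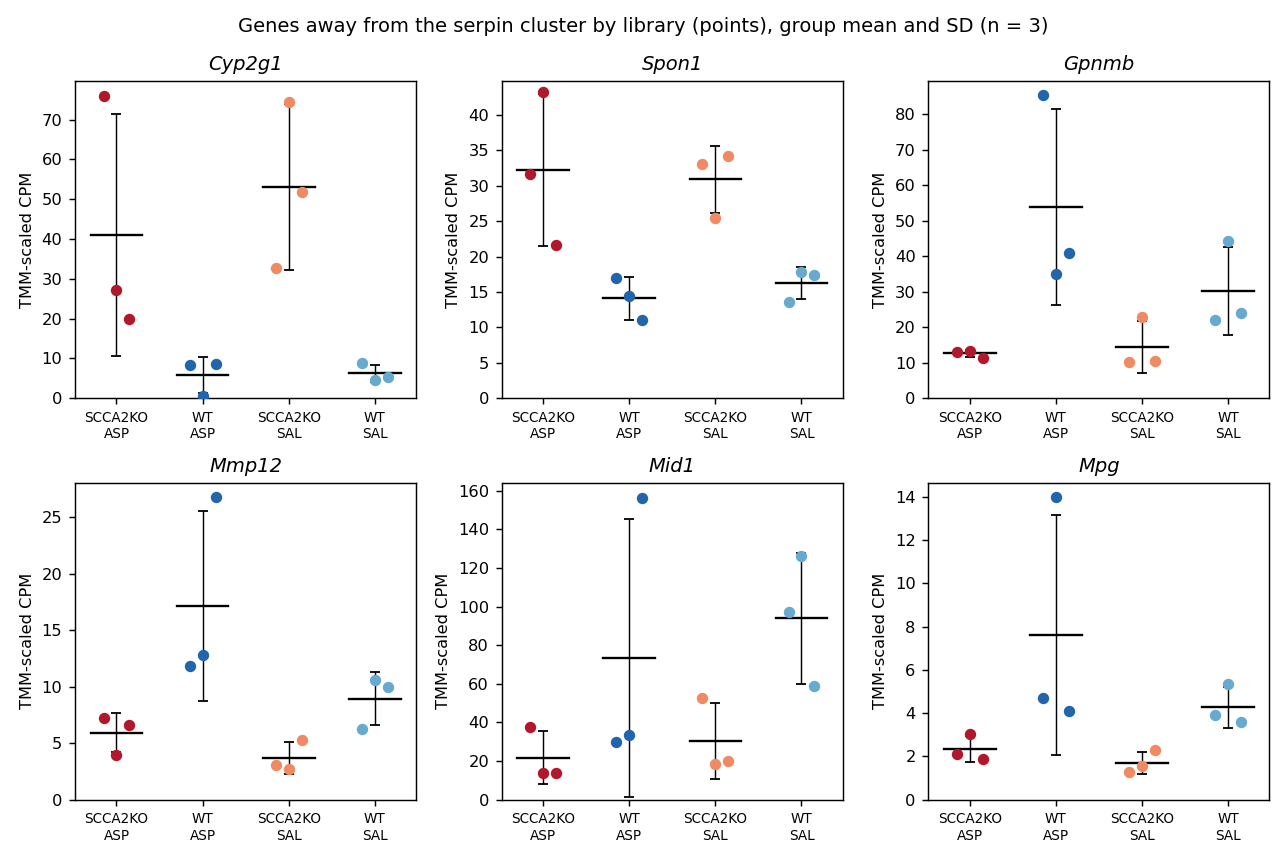
Levels of 6 genes outside the serpin cluster in each library, in TMM-scaled CPM, for SCCA2KO and WT under the ASP and then the SAL patch; points are libraries, lines the mean and SD of 3. Cyp2g1 and Spon1 are higher and Mpg lower in all 6 SCCA2KO libraries; the WT ASP values of Gpnmb, Mid1 and Mpg each include 1 high library (85.4, 156 and 14.0 CPM).

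Gene lists for skin and its cells added no called gene: of 33 lists, 1 held a gene that passed edgeR's adjusted test, the clade B serpins with Serpinb11. Counts below are at an unadjusted p under 0.05, against 1.59% of all genes higher and 1.90% lower, and beside a median log2 fold change of -0.02 over all genes. Over both patches 7266 of the 15341 genes tested were positive and 8075 negative. Of all genes tested, 3553 were positive and 3884 negative under each patch. A median above 0 was held by 23 of the 33 lists, such as skin proteases (0.20) and monocyte and macrophage markers (0.35). Epidermal lipid genes were mostly positive. Of 31 barrier lipid genes, 6 were higher, 0 lower and 25 positive, with a median of 0.21. Elovl7, a fatty acid elongase, averaged 76.5 ± 15.3 CPM in SCCA2KO and 48.3 ± 9.06 CPM in WT (SD, n = 6 each), without overlap. Cers4, a ceramide synthase, averaged 49.7 ± 9.74 CPM in SCCA2KO and 32.2 ± 8.82 CPM in WT (SD, n = 6 each). The lipid-cleaving sphingomyelinase Smpd1 had a log2 fold change of 0.52 ± 0.20 and the elongase Elovl1 0.52 ± 0.22.

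Of 20 sebaceous gland genes, 7 were higher, 0 lower and 19 positive, with a median of 0.43, and 15 were positive under each patch. Elovl3, an elongase of sebaceous lipids, had a log2 fold change of 1.03 ± 0.37, with 1 high library: SCCA2KO ASP replicate 2 had 33.4 CPM, the other SCCA2KO libraries 7.35 to 15.2 CPM and the WT libraries 3.29 to 9.24 CPM. Awat2 and Dgat2l6, acyltransferases of the wax and neutral lipid pathway, had 1.28 ± 0.51 and 1.03 ± 0.39, and SCCA2KO SAL replicate 1 had the most Awat2, at 23 CPM against at most 10.1 CPM in the other SCCA2KO libraries and at most 7 CPM in WT. The summed level of the 20 overlapped between the genotypes, at 3835 to 7831 CPM in SCCA2KO and 3039 to 7644 CPM in WT, and its part in the barrier lipid values was not tested. Of 40 cornified envelope genes, 2 were higher, 0 lower and 36 positive, with a median of 0.25. The calmodulin-like Calml3 had 0.92 ± 0.28, and hornerin (Hrnr), a filaggrin-type protein, averaged 3661 ± 1466 CPM in SCCA2KO and 2129 ± 422 CPM in WT (SD, n = 6 each). The log2 fold change of Hrnr was 1.16 under ASP and 0.36 under SAL.

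Clock genes were split. Of 18, 3 were lower, 1 higher and 11 negative, with a median of -0.30. Tef, an output transcription factor of the clock, averaged 26.3 ± 4.47 CPM in SCCA2KO and 39.0 ± 3.71 CPM in WT (SD, n = 6 each), and the genotypes did not overlap. Dbp, its relative, averaged 15.1 ± 6.16 CPM in SCCA2KO and 31.4 ± 12.8 CPM in WT (SD, n = 6 each). Per3, a period gene, had a log2 fold change of -0.90 ± 0.29, with -0.33 under ASP and -1.47 under SAL. Arntl, which encodes the activator BMAL1, had 0.68 ± 0.30. The labels give the day but not the hour of harvest.

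Detoxification genes had 4 of 31 higher and 0 lower. Cyp2g1 led, followed by the carboxylesterase Ces4a at 33.6 ± 14.6 CPM in SCCA2KO and 14.2 ± 4.95 CPM in WT (SD, n = 6 each; log2 fold change 1.29 ± 0.31). Gsta1 and Gsta2, glutathione transferases, followed 1 library: SCCA2KO SAL replicate 3 had 55.1 and 76.4 CPM, against at most 4.95 and 5.86 CPM in the other SCCA2KO libraries and at most 4.01 and 2.77 CPM in WT.

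Immune lists differed in their share of genes past that mark. Of monocyte and macrophage markers 4 of 24 were higher, and of MHC genes 2 of 28. In the neutrophil list 1 of 6 was higher, in the dendritic and Langerhans cell list 1 of 19. The eosinophil and basophil list and the B and plasma cell list each had 1 of 5 higher. In each of these lists 0 were lower. Of 24 type 2 and alarmin genes, 2 were higher and 0 lower: Ccr3, the eotaxin receptor of eosinophils, with a log2 fold change of 1.90 ± 0.57, and Ccl22, a chemokine of dendritic cells and macrophages, with 1.38 ± 0.44. Ccr3 was 12.4, 0.985 and 10.01 CPM in SCCA2KO and 1.83, 4.48 and 2.11 CPM in WT under ASP, so 1 SCCA2KO library lay below WT. The complement chain C1qc had 0.79 ± 0.25, with 0.20 under ASP and 1.38 under SAL. Mast cell markers were negative for 9 of 10 over both patches, with a median of -0.34, and 6 of 10 were negative under each patch. Their median was -0.66 under ASP but -0.05 under SAL. The mast cell carboxypeptidase Cpa3 was lower at -0.61 ± 0.28, with -0.98 under ASP and -0.23 under SAL. Antimicrobial and type 17 genes had 1 of 13 higher, the siderophore-binding Lcn2 at 2.04 ± 0.66. Lcn2 had 3.28 under ASP, where WT libraries had 0 to 1.1 CPM, and 1.05 under SAL. Under SAL the genotypes overlapped, with WT replicate 2 at 12.03 CPM above SCCA2KO replicates 2 and 3. Of 32 interferon response genes, 0 were higher and 0 lower, and of 18 T cell and innate lymphoid markers 1 was higher, Thy1, which is also on the fibroblast list.

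Among structural cell lists, of 21 endothelial markers, 2 were lower, the junction cadherin Cdh5 (-0.87 ± 0.33) and the VEGF receptor Flt1 (-0.73 ± 0.30). The endothelial list as a whole was split, with 13 negative and 8 positive. Its median was -0.11 over both patches, -0.02 under ASP and -0.13 under SAL. The 11 tested hair shaft genes had a median of 0.68 under ASP and -1.17 under SAL, where WT SAL replicate 1 held 189 CPM of trichohyalin (Tchh) and the other 11 libraries at most 5.55 CPM. All 21 Mup genes were positive over both patches, with 0 at an unadjusted p under 0.05. Their median was 0.01 under ASP and 1.21 under SAL. Under SAL alone Mup20, Mup4 and Mup5 had edgeR unadjusted p of 0.0315, 0.0323 and 0.0451. The Mup genes are near-identical copies and do not count as separate observations.

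**Figure D5:**
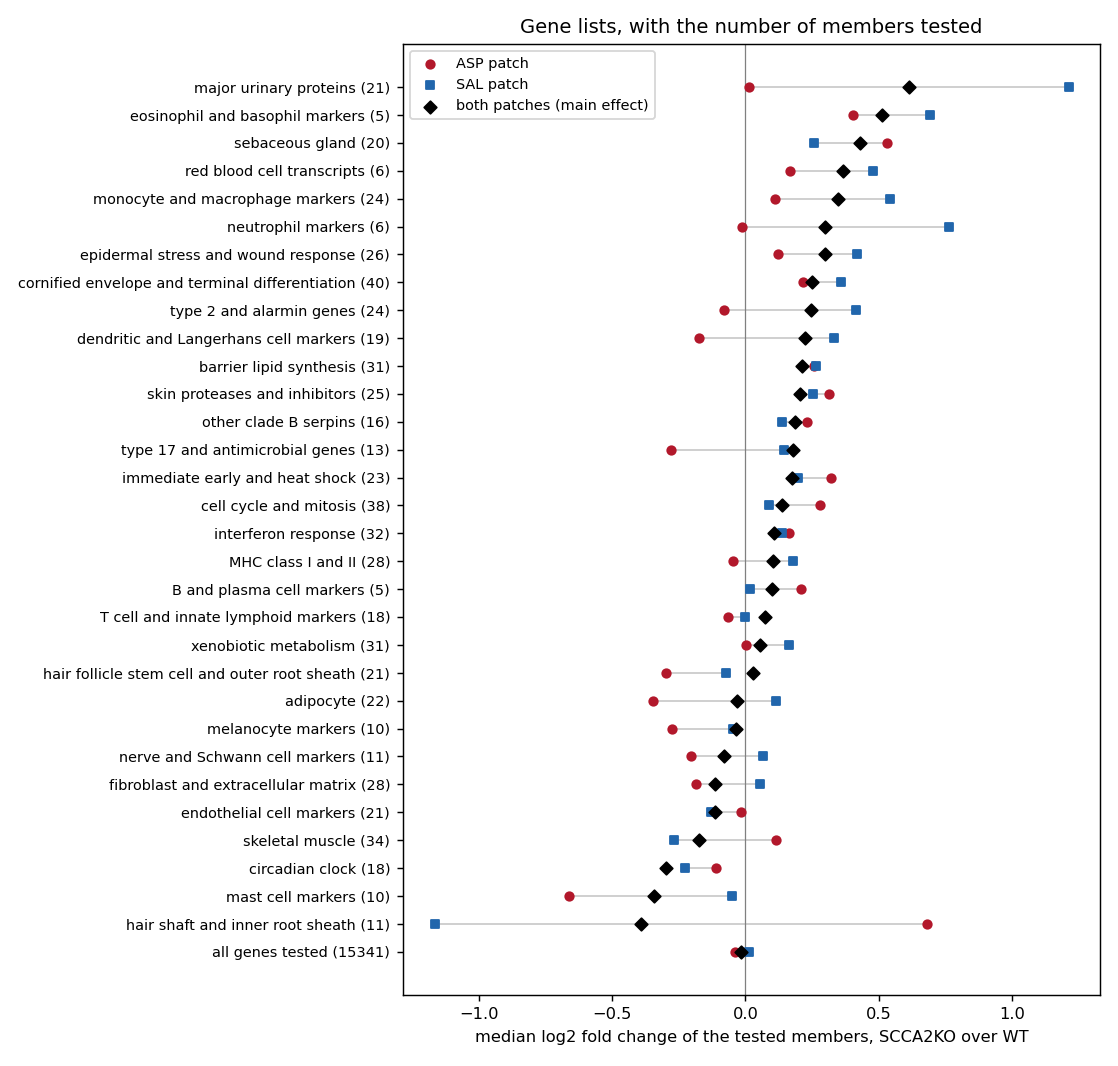
Median log2 fold change, SCCA2KO over WT, of the tested members of 31 gene lists with at least 5 tested, under ASP (red), under SAL (blue) and over both patches (black), with all genes at the bottom. Sebaceous, barrier lipid, cornified envelope and skin protease lists, among others, lie above 0 under both patches. Mup, hair shaft and neutrophil lists differ between patches.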

How the data were processed

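RNA-seq of mouse skin was analysed from the gene-level table of counts that the authors deposited. The submitters' processing notes list the mm10 genome build with TopHat, bcl2fastq, CASAVA 1.8 and DESeq. For counting, the program, annotation and strandedness are unknown: not given in the sources used here. The deposited counts are whole numbers, unnormalised; 6 other columns of the table with no matching sample were not used. Of 23469 gene IDs, 23372 received a symbol and mm10 position from RefSeq (GRCm38.p6); the 97 others held 7.57% to 15.8% of the counts per library and stayed in the library totals.

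Here, edgeR 4.0.16 (R 4.3.3) was used: filterByExpr, TMM scaling and a robust quasi-likelihood fit with treatment plus genotype (SCCA2KO minus WT). The within-patch contrasts and their difference came from a fit with 1 coefficient per group. P-values were adjusted by Benjamini-Hochberg over 15341 genes. The common dispersion was 0.185, a biological coefficient of variation of 0.430. DESeq2 1.42.0 and limma 3.58.1 (voom), other scalings, filters, blocks and left-out libraries were alternatives. Code was tested on simulated data.

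Named were the 4 Serpinb3 paralogs, the 5 genes with the smallest p per direction (mean log2 CPM of at least 0, same sign under both patches), as fewer than 5 were called, and up to 4 members of each list with the smallest p. Members and lists were chosen with earlier results of these data known. Shared words are 50-base sequences of annotated transcripts (GENCODE) found in another gene.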

Additional observations from a re-analysis of the deposited data

Results flagged for a closer look

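Among 22 sets of 6 libraries of 1 genotype tested for a library far from the others (11 named genes, log2 scale), 4 held one, where chance gives about 1 in 20. The measure is the gap of the extreme library to its neighbour as a share of the range, set against Dixon's critical value. For Serpinb11 the SCCA2KO library of the SAL patch with 5.14 CPM was the lowest of 6 (0.692). Gpnmb in SCCA2KO was highest in the same library, at 22.97 CPM (0.662). For Cyp2g1 in WT, ASP replicate 2 was the lowest, at 0.560 CPM (0.729). Mpg in WT was highest in that library, at 14.0 CPM (0.715).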

How the results depend on the processing

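Direction held for all 11 named genes in each alternative that tested them, 25 for Serpinb3d, 26 for Serpinb3c and 27 for each other gene. All but the Serpinb3 paralogs were picked for the same sign under both patches. A held direction was therefore largely set by that choice and is no separate support. Serpinb11 kept a log2 fold change of 2.6 to 3.52 over 27 alternatives (adjusted p 2.21e-09 to 0.9998). It was no longer called without the 3 libraries farthest from the rest (adjusted p = 0.116), in the 6 ASP libraries alone (0.9998) or in the 6 SAL libraries alone (0.407), fits with fewer libraries, where 0 genes were called higher in each. The main count of 1 gene higher became 2 with upper-quartile scaling, without the treatment covariate and with limma-voom, and 5 with DESeq2. Leaving out 1 library gave 0 to 2. DESeq2 also called 2 genes lower over both patches, 5 under ASP, 6 under SAL and 1 in the interaction, where edgeR called 0. The interaction gene was Gm15093, which had 0 CPM in most libraries and was also called under each patch. Without the 3 farthest libraries 1 gene was called under ASP. Called genes with the same sign under both patches numbered 1, but 2 with upper-quartile scaling and with limma-voom, 7 with DESeq2, 0 without the 3 farthest libraries, and 0 to 2 leaving out 1 library. The 20 genes at an unadjusted p under 0.05 under each patch became 34 with DESeq2, 31 without the 3 farthest libraries, and 14 to 45 leaving out 1 library. The cause of these shifts was not tested.

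Of 18 pairs of libraries with equal replicate numbers, 5 had a correlation of deviations over 0.1 (range -0.21 to 0.16). Pairs with unequal numbers were not computed beside them, so this cannot decide whether the numbers pair the libraries. With the replicate block 1 gene was called higher (Serpinb11, log2 fold change 3.12, adjusted p = 0.0444). With the replicate block within treatment it was 2, Cyp2g1 being added at an adjusted p of 0.0493. Scaling moved the median of all genes by less than 0.1 log2. Depth limits genes with few counts, such as Serpinb3d with 1 to 3 counts per WT library.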
